A study of Mus musculus with 8 samples.

Results

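The 34 genes described here encode proteins that start an autophagosome, extend its membrane and select its cargo. They were taken by name from a list, with no measured value used in the rule. The list itself was chosen with earlier results of these data known. Of the genes, 34 of 34 were measured by a probe set with a single annotated symbol, as the rule required, out of 18193 such genes on the array. They fall into 7 subgroups, of 5 genes of the ULK complex, 6 of the PI3K complex, 8 of the ATG9, ATG2 and WIPI group, 6 conjugation enzymes, 4 receptor genes, 3 mitophagy genes and 2 TFE factors. Expression was compared between 4 C2C12 cultures that received lentivirus with siRNA against DOR and 4 that received lentivirus with scrambled RNA. C2C12 is an established mouse myoblast line, which stops dividing and fuses into myotubes in low serum. All 8 cultures were transduced at a multiplicity of infection of 100, amplified for 5 to 7 days, sorted for GFP (93 to 99% positive) and then kept in 5% horse serum for 4 days, per the labels' protocols. The cells are labelled both confluent myoblasts and differentiating, and the myotube genes given below were bright in all 8 arrays. The sample descriptions also carry a D2 mark whose meaning is not given, so the stage at harvest is not settled. The labels name no siRNA sequence and no uninfected culture was analysed here. How the replicate cultures of a group arose is not described there, so p-values measure the spread between these cultures alone. DOR is the product of Trp53inp2, and the comparison asks which transcripts differ when it is reduced.

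In autophagy a membrane cup grows around cytoplasm or a damaged organelle, closes, and fuses with a lysosome. The ULK kinase complex gives the start signal, and a lipid kinase complex built on VPS34 and Beclin 1 marks the site with phosphatidylinositol 3-phosphate. ATG9 vesicles and the lipid carrier ATG2, with WIPI proteins that read that lipid, enlarge the membrane. A ubiquitin-like conjugation system then attaches LC3 and GABARAP proteins to it, which cargo receptors such as p62 recognise. The protein DOR is known to bind LC3-family proteins and VMP1 at early autophagosomes. TFEB and TFE3 are transcription factors of autophagy and lysosome genes, and they bind the E-box motif CACGTG.

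That motif was searched in RefSeq promoters, from 250 bases before to 50 after the annotated start, build GRCm38.p6. The letters read the same on both strands. Of the 34 genes 29 matched a promoter entry, and 6 of these 29 held CACGTG, against 8.09% of the 27025 genes in the table (7.15% of its 32851 windows). The longer TCACGTG, which contains it and was searched on both strands, was found in 4 of the 29, against 4.29% of genes. A match is a description of letters and not a measured binding site. The stretches around the motif are shown because TFE factors are themselves among the genes compared, with the motif in capitals and each written 5′ to 3′ on the gene's strand.
Atg3, chr16:45158705-45158793, plus strand: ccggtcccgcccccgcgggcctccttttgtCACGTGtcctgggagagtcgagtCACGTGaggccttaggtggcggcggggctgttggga
Atg5, chr10:44268313-44268338, plus strand: cggagcgcttgcCACGTGgtcttggt
Atg7, chr6:114670934-114670999, plus strand: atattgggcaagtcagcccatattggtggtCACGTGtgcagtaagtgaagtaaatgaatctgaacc
Atg14, chr14:47568418-47568447, minus strand: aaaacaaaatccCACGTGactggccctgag
Bnip3, chr7:138909579-138909644, minus strand: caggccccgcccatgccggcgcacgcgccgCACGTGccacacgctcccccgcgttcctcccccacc
Tbk1, chr10:121586772-121586801, minus strand: cccgcactcggtCACGTGctccgtggcccg

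In Atg3 the motif began 94 and 71 bases before the start, and 2 copies were found in 0.594% of all windows. It began 108 bases before the start in Bnip3, 132 in Atg7, where the listed start lies inside the gene's span, 14 in Atg5 and 1 in Atg14. In Tbk1 it began at base 6, with the start counted as base 1. As given below, Bnip3 had the largest positive difference of the 34 genes and Atg3 the largest negative one. Genes with the motif thus stood at both ends of the range, but neither of these differences passed the test. A link between the motif and the differences was not tested. Atg5, Atg7 and Tbk1 lay between, at 0.06, 0.05 and 0.02 log2 units, and Atg14 at 0.14.

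The target transcript was lower in each knockdown array. The brighter probe set of Trp53inp2 had a mean of 11.35 ± 0.29 log2 units in the scrambled and 9.51 ± 0.31 in the knockdown arrays (SD, n = 4 each), a 3.56-fold decrease (limma adjusted p = 0.00087). Its dimmer probe set, at 8.01 and 8.15, did not show it (limma adjusted p = 0.52). Defining markers of myogenic cells were bright, with list means of 11.87 to 12.12 over the arrays. Those of adipocytes, endothelium, macrophages and bone, 14 measured genes, had list means between 4.45 and 5.22. These lie under the median of all probe sets of 6.18, although Csf1r (6.80), Retn (6.51) and Sp7 (6.22) had means above it. None of the 14 passed the test. Of 7 markers of myogenic cells 1 was called lower (limma adjusted p under 0.05), Ncam1, by 0.59 log2 units. Of 7 markers of fused muscle 4 were called lower, Actn2 by 1.71, Neb by 0.90, Myh3 by 0.42 and Tnnc2 by 0.34. Over all genes 1.45% were called lower. The differences of all 7 fused muscle markers were below 0, and 6 had an unadjusted limma p under 0.05, against 18.0% of all genes in either direction. The mean of that list was 12.96 to 13.18 in the scrambled and 12.25 to 12.61 in the DOR siRNA arrays, with no overlap. With cultures paired by number, Ckm (-0.65, limma adjusted p = 0.0063) was also called lower, making 5 of 7, and Myf5 (0.45, 0.044) was called higher, making 2 of 7 myogenic markers called. Fewer fused cells and less RNA per cell cannot be told apart in these cultures. The part of this marker shift in the values below was not tested.

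None of the 34 genes passed the test. By limma over all probe sets, where a call means an adjusted p under 0.05, 0 of 34 were higher and 0 lower, while over all genes 3.11% were called higher and 1.45% lower. With 34 genes, 0 calls is near that background. At an unadjusted p under 0.05 there were 2 higher, Bnip3 and Uvrag, and 1 lower, Atg3, against 18.0% of all genes in either direction. The groups did not overlap for 3 of the 34, Uvrag (higher) and Atg3 and Atg16l1 (lower), against 12.2% of all genes. Pairing same-numbered cultures, which called 8.25% of all genes, also called 0 of the 34.

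For the brightest probe sets, the arrays gave these limits on the size of a change. Differences (DOR siRNA minus scrambled) ran from -0.21 to 0.35 log2 units, with a median of 0.033 beside 0.015 over all genes. Of the 34, 24 were above 0 and 10 below, beside 9990 above and 8203 below over all 18193 genes. The 95% intervals of 33 of the 34 genes lay wholly within a 1.5-fold change either way, and those of 34 of 34 within 2-fold. Over all genes 88.4% of intervals lay within 1.5-fold and 97.6% within 2-fold. For the 8965 genes at least as bright as the dimmest of the 34, these shares were 83.6% and 96.9%. The exception among the 34 was Bnip3, whose interval reached 0.60 against the bound of 0.58. Over all 78 probe sets of the 34 genes, 76 intervals lay within 1.5-fold and 78 within 2-fold; the second beyond 1.5-fold was a dimmer probe set of Atg12, at -0.63 to 0.22. Each gene is given by its brightest probe set, with means between 7.20 and 12.56, above the median of all probe sets. The median standard error of a difference was 0.087, against 0.093 over all genes.

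**Figure D1:**
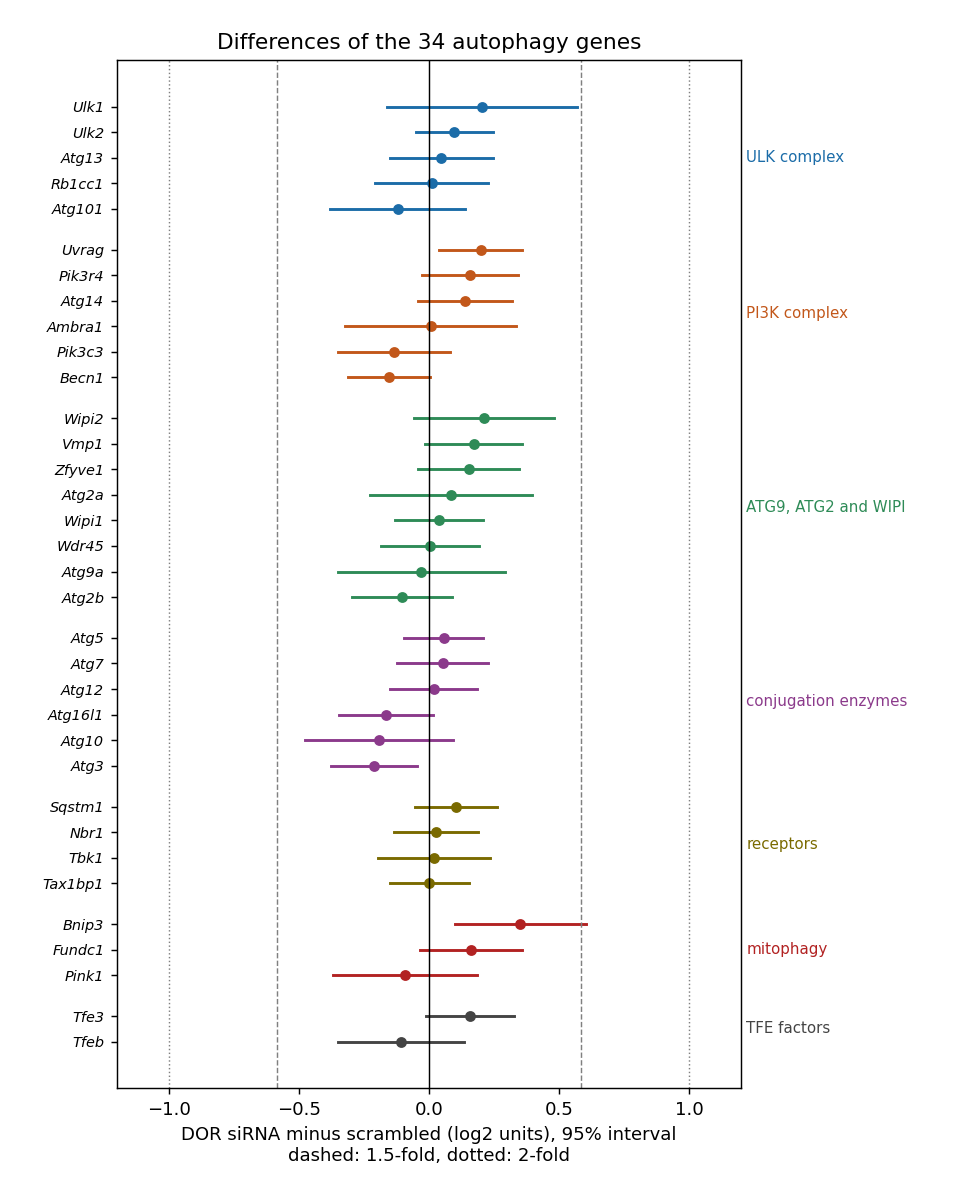
Each point is the difference of 1 gene, DOR siRNA minus scrambled in log2 units, and each line its 95% interval from limma (4 arrays against 4), coloured by subgroup. Dashed lines mark 1.5-fold and dotted lines 2-fold; the interval of Bnip3 is the only one to cross a dashed line, at 0.60.

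Among the ULK complex, 5 of 5 genes did not pass. Ulk2, a kinase of the complex, had values of 9.49, 9.47, 9.52 and 9.45 log2 units on scrambled arrays 1 to 4, against 9.51, 9.59, 9.60 and 9.63 on DOR siRNA arrays 1 to 4. The 2 groups touched only at the lowest knockdown array, number 1. The difference was 0.10 ± 0.07 (SE, limma adjusted p = 0.58), small although the replicates of this gene were tight.

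Ulk1, the main kinase of the complex, was less even. Scrambled values were 9.00, 9.16, 9.13 and 8.58, and knockdown values 9.03, 9.64, 9.09 and 8.94. Scrambled 4 was the lowest and DOR siRNA 2 the highest of the 8, and the other 6 arrays overlapped. The difference was 0.21 ± 0.17 (95% interval -0.16 to 0.57, limma adjusted p = 0.65). It was 0.05 without DOR siRNA 2 and 0.08 without scrambled 4. Of the remaining subunits, Atg13, the regulatory partner of the kinases, differed by 0.05 ± 0.09, and Rb1cc1, the scaffold FIP200, by 0.010 ± 0.10. Atg101, which stabilises ATG13, differed by -0.12 ± 0.12 and was lower in 4 of 4 same-numbered pairs.

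Of the PI3K complex, 6 of 6 genes did not pass, with differences from -0.15 to 0.20. Uvrag, a Beclin 1 partner in endosomal and late autophagy steps, read 8.43, 8.45, 8.45 and 8.47 under scrambled RNA and 8.57, 8.59, 8.77 and 8.66 under DOR siRNA. Each knockdown array lay above each scrambled one. The scrambled values were close together (SD 0.02), and the difference was 0.20 ± 0.07 (95% interval 0.04 to 0.36, limma adjusted p = 0.20).

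Becn1, which encodes Beclin 1, the platform of the complex, lay on the other side. Its scrambled values were 10.88, 10.87, 10.86 and 10.71 and its knockdown values 10.68, 10.73, 10.67 and 10.63. Scrambled 4 fell among the knockdown values, and the other 3 scrambled arrays lay above them. The difference was -0.15 ± 0.07 (limma adjusted p = 0.34). Its second brightest probe set gave -0.17 ± 0.07 with groups that did not overlap (limma adjusted p = 0.29), while a much dimmer one gave 0.09 ± 0.11.

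The catalytic subunit Pik3c3 (VPS34) and its regulatory subunit Pik3r4 (VPS15) had differences of opposite sign, -0.13 ± 0.10 and 0.16 ± 0.08. Pik3r4 was higher in 4 of 4 pairs. So was Atg14, the subunit that directs the complex to early autophagosomes, at 0.14 ± 0.08. Ambra1, a Beclin 1 regulator, differed by 0.0065 ± 0.15, with an interval of -0.32 to 0.34, among the wider ones.

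For the proteins that enlarge the membrane, 8 of 8 genes did not pass. Vmp1, an endoplasmic reticulum protein to which DOR is known to bind, read 11.80, 11.89, 11.98 and 12.12 under scrambled RNA and 12.15, 12.18, 12.03 and 12.11 under DOR siRNA. Scrambled 4 lay among the knockdown arrays and the other 3 below them. This probe set gave 0.17 ± 0.08 (limma adjusted p = 0.38), but the other one of Vmp1, also bright, gave -0.20 ± 0.12 (limma adjusted p = 0.51), so the direction for this gene depends on the probe set. The Vmp1 locus also holds the miR-21 gene, and which transcripts each probe set reads was not tested.

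Wipi2, which reads phosphatidylinositol 3-phosphate and recruits the conjugation machinery, showed a wide spread. It read 8.82, 8.85, 9.06 and 8.53 under scrambled RNA and 9.06, 9.27, 8.86 and 8.91 under DOR siRNA. The groups overlapped, with scrambled 4 lowest and DOR siRNA 2 highest, as for Ulk1. The difference was 0.21 ± 0.12 (limma adjusted p = 0.48), and 0.13 without DOR siRNA 2 or 0.12 without scrambled 4.

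The other genes of this subgroup lay nearer 0. Zfyve1, which encodes DFCP1, a marker of the omegasome where autophagosomes form, differed by 0.15 ± 0.09 and was higher in 4 of 4 pairs. The lipid scramblase gene Atg9a differed by -0.03 ± 0.15. The lipid carriers Atg2a and Atg2b differed by 0.09 ± 0.14 and -0.10 ± 0.09. The WIPI proteins Wipi1 and Wdr45 (WIPI4) differed by 0.04 ± 0.08 and 0.0030 ± 0.09.

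Of the conjugation enzymes, 6 of 6 did not pass, and their differences reached lower than those of any other subgroup. Atg3, the E2-like enzyme that passes LC3 to its lipid, read 11.13, 11.11, 10.99 and 10.94 under scrambled RNA and 10.91, 10.80, 10.81 and 10.81 under DOR siRNA. The groups were separate, with the lowest scrambled array (4) just above the highest knockdown array (1). The difference was -0.21 ± 0.07 (95% interval -0.38 to -0.05, limma adjusted p = 0.18).

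A second, dim probe set of Atg3 gave -0.33 ± 0.11 (limma adjusted p = 0.16), from means of 4.70 and 4.37 that lie under the median of all probe sets. It passed when cultures were paired by number (adjusted p = 0.049, limma with the replicate number as a block). It was the only one of the 78 probe sets of the 34 genes to do so, where that fit called 6.28% of all probe sets. The dim values were not shown to be above background.

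Atg16l1, which with the ATG12-ATG5 conjugate places LC3 on the membrane, read 8.76, 8.99, 8.79 and 8.72 under scrambled RNA and 8.57, 8.71, 8.71 and 8.61 under DOR siRNA. The groups did not overlap, but the highest knockdown arrays, 2 and 3, came close to the lowest scrambled array, number 4. The difference was -0.16 ± 0.08 (limma adjusted p = 0.38), and -0.11 without scrambled 2. Atg10, the E2-like enzyme for ATG12, differed by -0.19 ± 0.13 and was also lower in 4 of 4 pairs. The 3 remaining genes were close to 0, with Atg5 at 0.06 ± 0.07, the E1-like enzyme Atg7 at 0.05 ± 0.08 and the ubiquitin-like protein gene Atg12 at 0.02 ± 0.08.

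The receptor genes were the tightest set, with a median standard error of 0.072, and 4 of 4 did not pass. Sqstm1, which encodes p62, read 12.56, 12.53, 12.50 and 12.42 under scrambled RNA and 12.62, 12.52, 12.64 and 12.66 under DOR siRNA. DOR siRNA 1, 3 and 4 exceeded each scrambled array, and DOR siRNA 2 fell among them. The difference was 0.10 ± 0.07 (95% interval -0.05 to 0.26, limma adjusted p = 0.57).

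Nbr1, a receptor related to p62, read 11.53, 11.48, 11.39 and 11.34 in the scrambled and 11.42, 11.51, 11.49 and 11.43 in the knockdown arrays, so the groups lay over each other. The difference was 0.03 ± 0.07 (limma adjusted p = 0.93), and -0.0050 without scrambled 4. Tax1bp1, a receptor that reads ubiquitin, differed by 0.0014 ± 0.07 in its brightest probe set. Another of its probe sets gave 0.22 ± 0.09 with no overlap (limma adjusted p = 0.24). Tbk1, the kinase that phosphorylates receptors, differed by 0.02 ± 0.10.

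Mitophagy genes held the largest difference of the 34. Bnip3, a receptor on the outer mitochondrial membrane and a known target of hypoxia signalling, read 9.96, 10.44, 9.98 and 10.20 under scrambled RNA and 10.64, 10.56, 10.35 and 10.44 under DOR siRNA. Scrambled 2 overlapped the knockdown values and the other 3 scrambled arrays lay below them. The difference was 0.35 ± 0.11 (95% interval 0.10 to 0.60, limma adjusted p = 0.14), and the paired fit gave an adjusted p of 0.075. It was higher in 4 of 4 pairs.

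Fundc1, another mitophagy receptor, read 10.01, 10.07, 10.12 and 10.26 under scrambled RNA and 10.16, 10.18, 10.33 and 10.43 under DOR siRNA. The groups overlapped at scrambled 4, yet 4 of 4 pairs were higher, since arrays 3 and 4 were the brighter ones in both groups. The difference was 0.16 ± 0.09 (limma adjusted p = 0.44). Pink1, the kinase that marks damaged mitochondria, differed by -0.09 ± 0.13 and was lower in 4 of 4 pairs. The 3 mitophagy genes did not pass.

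Of the TFE factors, 2 of 2 did not pass. Tfe3 read 8.61, 8.66, 8.72 and 8.65 under scrambled RNA and 8.69, 8.94, 8.87 and 8.76 under DOR siRNA. Only scrambled 3 reached into the knockdown range. The difference was 0.16 ± 0.08 (limma adjusted p = 0.37), with 4 of 4 pairs higher.

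Tfeb read 8.08, 8.38, 8.20 and 7.81 under scrambled RNA and 8.01, 7.96, 8.06 and 8.02 under DOR siRNA. The knockdown values were narrow (SD 0.04) and lay inside the scrambled range (SD 0.24), whose ends were arrays 2 and 4. The difference was -0.11 ± 0.11 (limma adjusted p = 0.75). It was -0.02 without scrambled 2 and -0.21 without scrambled 4. Transcript levels say nothing of where these factors are in the cell, which is how they are mainly controlled.

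**Figure D2:**
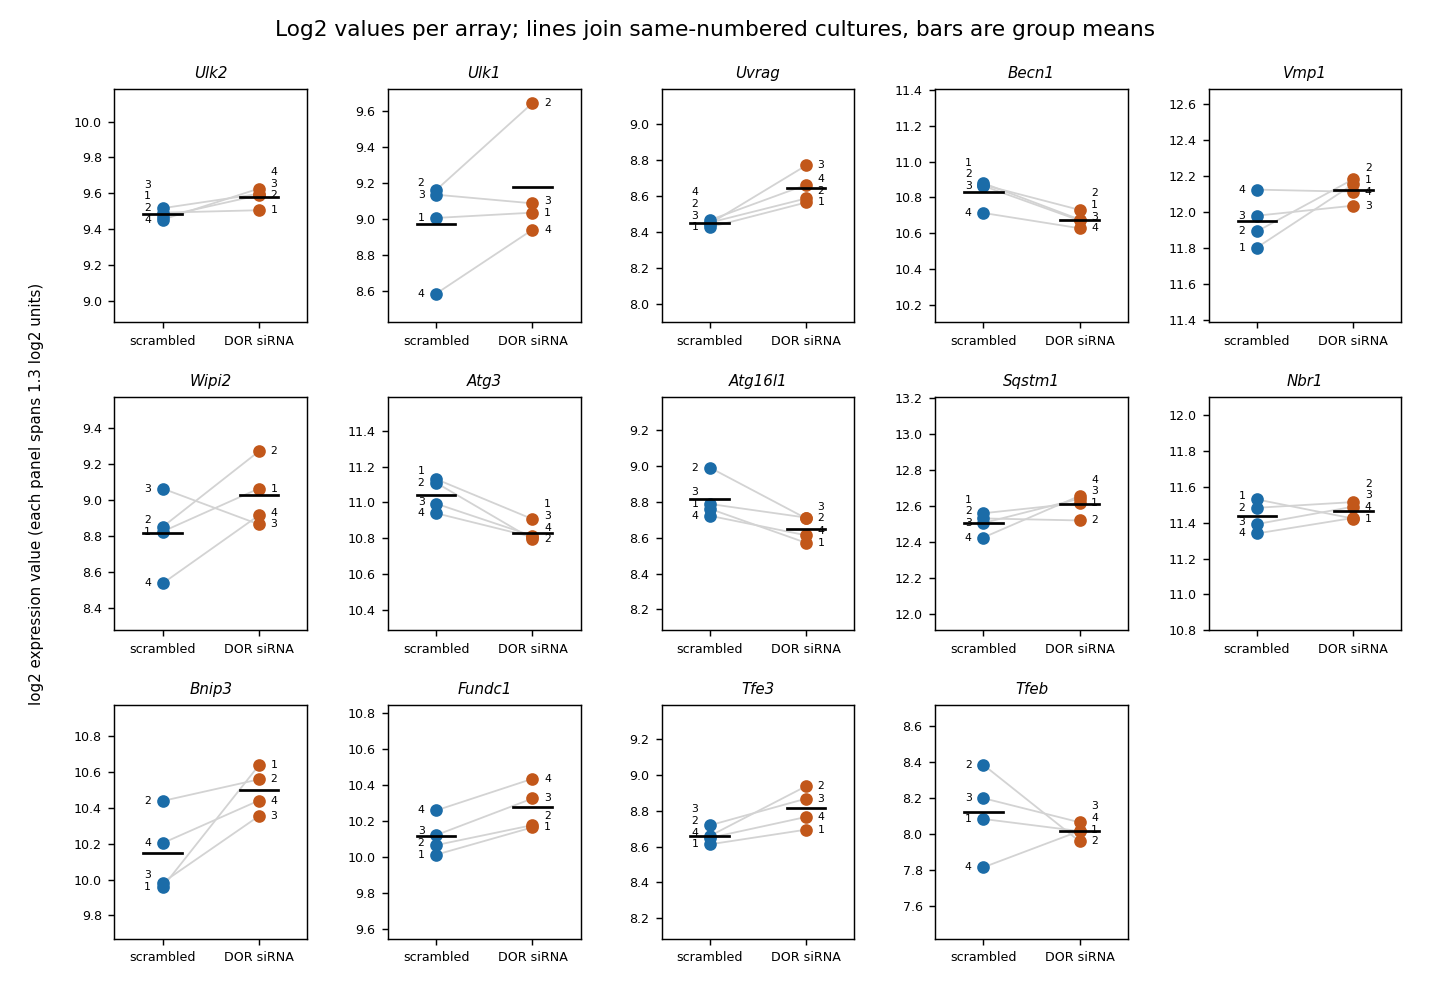
Log2 expression value of 14 genes, the 2 with the smallest p in each subgroup, in the 4 scrambled (blue) and 4 DOR siRNA (orange) arrays. Grey lines join cultures of the same number, black bars are group means, and the numerals give the culture numbers in the order of the values, moved apart where they would overlap. Uvrag, Atg3 and Atg16l1 are the panels in which the groups do not overlap.

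The 34 genes had 78 probe sets in all, up to 6 for a gene, and 11 genes had only 1. None of the 78 passed the test, against 3.22% of all probe sets, and at an unadjusted p under 0.05 there were 3 higher and 3 lower, against 15.3% of all probe sets in either direction. Their differences ran from -0.33 to 0.35. For 19 genes at least 2 probe sets had a mean no lower than 6.18; these had 1 sign in 11 genes and both signs in 8. The 8 were Atg12, Atg7, Becn1, Nbr1, Rb1cc1, Ulk1, Vmp1 and Wipi2. In Wipi2 and Ulk1 the negative difference was only -2.3e-05 and -0.0045, so it shows no opposite direction. The brightest probe sets of Becn1, Pik3r4, Tbk1 and Wipi1 carry an s mark in their identifier, which in this array design means that their probes can match more than 1 transcript.

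**Figure D3:**
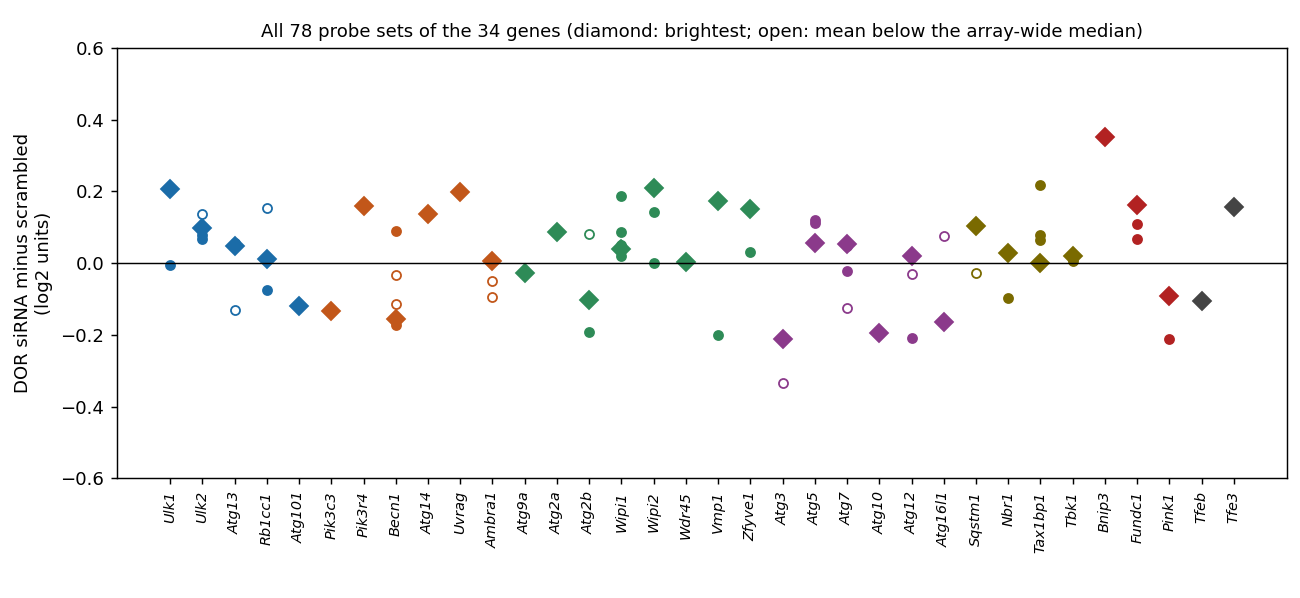
The difference (DOR siRNA minus scrambled, log2 units) of each of the 78 probe sets, by gene; diamonds are the brightest probe set of a gene, and open symbols have a mean below the median of all probe sets, 6.18. The points of Vmp1 lie on both sides of 0, and the lowest point is the dim probe set of Atg3.

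Same-numbered cultures did not shift these genes in 1 direction. The median difference within pairs 1 to 4 was 0.021, 0.12, -0.033 and 0.073 log2 units, beside 0.019, -0.0029, 0.031 and 0.016 over all genes. In these pairs 18, 22, 15 and 21 of the 34 genes were higher, and counts for single pairs were not made over all genes. Within a pair the largest difference was that of Bnip3 in pair 1, 0.68. Across the 4 pairs 8 genes were higher each time (Ulk2, Pik3r4, Atg14, Uvrag, Zfyve1, Bnip3, Fundc1 and Tfe3), and 6 were lower each time (Atg101, Becn1, Atg3, Atg10, Atg16l1 and Pink1). Over all genes 18.1% were higher and 12.5% lower in each pair, so these counts stand near the background.

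Some arrays stood out over many of the genes. DOR siRNA 2 held the highest of the 8 values for 14 of the 34 genes and scrambled 4 the lowest for 14. The same counts were not made over all genes, so whether they are particular to these genes is not known. The mean over the 34 genes was 9.33 log2 units on DOR siRNA 2 and 9.08 on scrambled 4, and between 9.15 and 9.27 on the other 6. Without DOR siRNA 2 the median difference was 0.016, and without scrambled 4 it was 0.021, in place of 0.033. No call was gained without either.

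**Figure D4:**
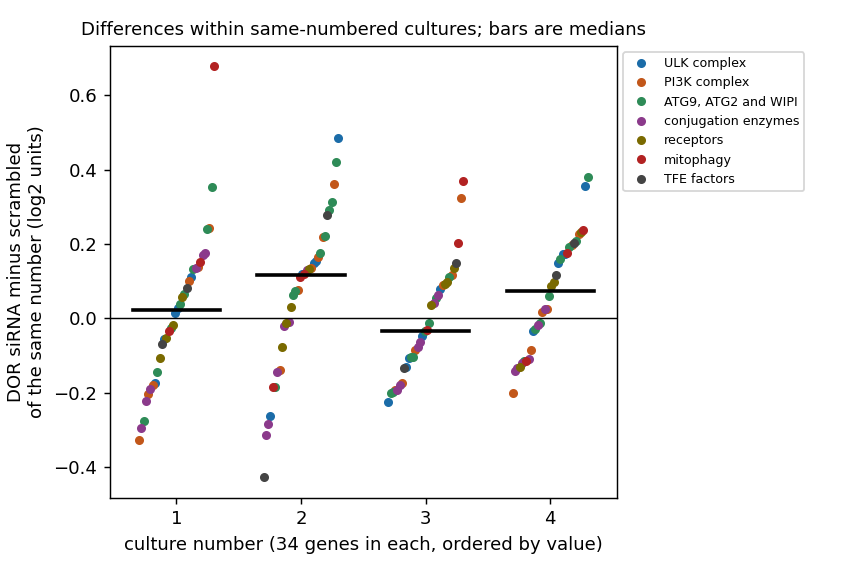
Each point is 1 of the 34 genes, as its DOR siRNA value minus its scrambled value in cultures of the same number (log2 units), ordered within a pair and coloured by subgroup. Black bars are medians, 0.021, 0.12, -0.033 and 0.073, and the topmost point of pair 1 is Bnip3.

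Other genes of the pathway were taken from 5 lists of 58 names, some of them older and newer names of 1 gene, and 53 were measured by a probe set with 1 symbol. Over these lists 1 of 53 was called higher and 2 lower, beside the background of 3.11% and 1.45%. Called or not, 22 of the differences were above 0 and 31 below. Atg4b, one of the proteases that trim LC3 and GABARAP proteins, fell by 0.67 ± 0.07 (limma adjusted p = 0.0011), and leaving out any 1 array did not end the call. Its scrambled values were 9.59, 9.51, 9.56 and 9.50 and its knockdown values 8.92, 8.89, 8.82 and 8.87. A second bright probe set of Atg4b gave a smaller difference, -0.31 ± 0.07 (limma adjusted p = 0.046). Its limma adjusted p reached 0.13 when 1 array was left out. A dim one gave -0.12 ± 0.08 (limma adjusted p = 0.51). Among the 9 genes of LC3 and GABARAP proteins and ATG4 proteases, by brightest probe set, Atg4b was the only one called.

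Bcl2, whose protein binds Beclin 1 as well as inhibiting apoptosis, rose by 0.41 ± 0.09 (limma adjusted p = 0.033). Its scrambled values were 7.84, 7.75, 7.87 and 8.04 and its knockdown values 8.25, 8.43, 8.17 and 8.27, with no overlap. It was the 1 gene called among 11 measured genes of initiation and regulation. The other probe sets of Bcl2, all dimmer, were not called (limma adjusted p from 0.33 to 0.75). Prkaa2, a catalytic subunit of the energy sensor AMPK, fell by 0.78 ± 0.18 (limma adjusted p = 0.043), 1 of 12 genes of mTORC1 and AMPK. It read 8.92, 9.27, 8.61 and 8.40 under scrambled RNA and 8.26, 7.73, 8.22 and 7.90 under DOR siRNA. Another probe set of Prkaa2, nearly as bright, gave -0.67 ± 0.18 with groups that overlapped and was not called (limma adjusted p = 0.077). A dim one gave -0.34 ± 0.13 (limma adjusted p = 0.20). Bcl2 and Prkaa2 kept the call without scrambled 4 and lost it when any 1 of the other 7 arrays was left out (limma adjusted p from 0.058 to 0.13), and Prkaa2 also lost it with median-centred arrays (0.051) and Bcl2 in the mean over its probe sets (0.065).

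No gene was called among 14 genes of fusion with lysosomes or among 7 further receptors and mitophagy genes, where at an unadjusted p under 0.05 there were 0 in both, beside 18.0% of all genes. Pairing the cultures called 5 of the 53 genes, near the 8.25% it called over all genes. The added ones were Gabarapl1, an LC3-family protein (0.33 ± 0.08, adjusted p = 0.044 with the block and 0.063 by limma without it), and Prkag3, a muscle subunit of AMPK (-0.86 ± 0.22, 0.0017 and 0.064), both named after their values were seen. A dimmer probe set of Gabarapl1 passed without the block (0.38 ± 0.09, limma adjusted p = 0.047). Prkag3 is found in muscle fibres, whose markers were lower in the knockdown arrays as given above. The part of that marker shift in the Prkag3 value, or in that of Prkaa2, was not tested.

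**Figure D5:**
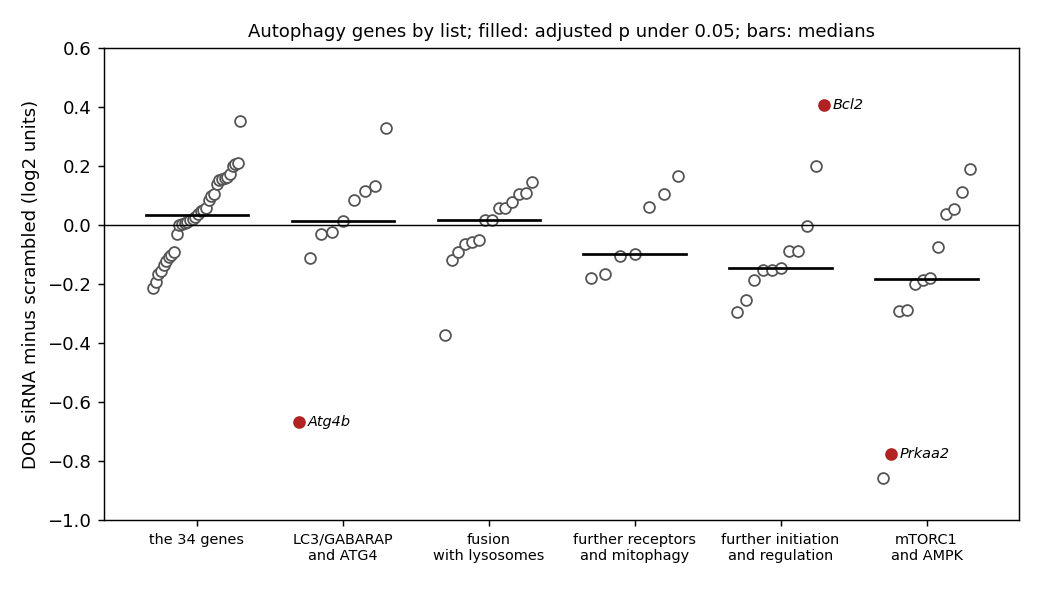
Differences (DOR siRNA minus scrambled, log2 units) of the 34 genes and of 53 other autophagy genes in 5 lists; each point is a gene, filled red where its limma adjusted p is under 0.05, and bars are medians. Atg4b, Bcl2 and Prkaa2 are filled, and no point of the 34 genes is.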

How the data were processed

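The authors deposited log2 expression values per probe set, made with RMA per the submitters' processing notes from 1-colour Affymetrix arrays; the RMA version is not given in the sources used here. RMA equalises the distribution of values between arrays and would hide a change common to all transcripts. Array medians were 6.14 to 6.20, and no raw intensities were used here. The 64 control probe sets were left out and 45037 were tested. Of these, 34945 had 1 symbol in the platform annotation, 932 several and 9160 none; 34741 identifiers matched RefSeq (GRCm38.p6). Each gene is given by the brightest of its probe sets (mean over the 8 arrays).

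Groups were compared with limma 3.58.1 (R 4.3.3), group alone, two-sided, Benjamini-Hochberg adjustment over all probe sets, and checked on simulated data. ± with a difference is the model's standard error, and with a mean the SD. The genes and lists were chosen with earlier results of these data known, so no list test was made. Values in every array are given for the 2 genes with the smallest p per subgroup; other pathway genes are named where called, and others are marked as chosen after their values were seen. Alternatives were pairing, a variance trend with robust prior, cyclic loess, median centring, bright probe sets alone, the mean over probe sets, and leaving out each array.

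Both groups carry replicate numbers 1 to 4, and the labels' descriptions give cultures of 1 number the same letter. After group means were removed, arrays with 1 number correlated at 0.15, 0.19, 0.14 and 0.47, each above 0.1. On that ground cultures were treated as paired by number in the blocked fit. Arrays with different numbers correlated at -0.39 to 0.27. Scrambled 2 with DOR siRNA 1 (0.27) and scrambled 1 with DOR siRNA 2 (0.18) were also above 0.1. These correlations alone therefore do not single out the same-numbered pairs. Figures used matplotlib 3.10.9 and tables pandas 2.3.3.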

Additional observations from a re-analysis of the deposited data

Results flagged for a closer look

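Among 76 groups of 4 arrays checked (34 genes, Trp53inp2, Atg4b, Bcl2 and Prkaa2, in either group), 2 held an array far from the other 3, where chance alone flags about 5% of groups. Becn1 read 10.71 on scrambled 4 against 10.86 to 10.88 on the other scrambled arrays. Atg3 read 10.91 on DOR siRNA 1 against 10.80 to 10.81 on the other knockdown arrays. Without scrambled 4 the difference of Becn1 was -0.19 and without DOR siRNA 1 that of Atg3 was -0.24, and neither gene passed.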

How the results depend on the processing

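Under 14 alternatives, 0 of 476 values of the 34 genes passed the threshold. The smallest adjusted p by limma was 0.051, for Atg3 in the mean over its probe sets, and 0.061 for Bnip3 without scrambled 2. The sign changed in 32 of the 476 values, in 13 genes; the farthest from 0 after such a change was Ambra1, at -0.13 without DOR siRNA 2. Of the genes that changed sign Vmp1 had the largest difference, 0.17, and was at -0.015 in the mean over its probe sets. The median over the 34 genes stayed between 0.0094 and 0.067. With the replicate block, 2827 probe sets were called in place of 1452, with 1 in place of 0 among the 78 probe sets of these genes and 5 in place of 3 among the 53 other pathway genes; it also called the markers Ckm and Myf5, and changed no other call among the genes named. Leaving out 1 array at a time moved the total from 608 (scrambled 3) to 2310 (scrambled 4), and the other pathway genes called from 1 to 6. The fall of Trp53inp2 passed under each of the 14, at -1.72 to -1.98 without 1 array and -0.85 in the mean over its probe sets. With 4 arrays a group, their number limits the precision; the cause of these shifts was not tested.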
